A study of Mus musculus with 2 samples.

Results

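The genes described here are those of the translation factors and aminoacyl-tRNA synthetases, 101 of the 20665 protein-coding genes on mouse chromosomes 1 to 19. They were chosen by symbol from the RefSeq gene table of GRCm38. Symbols starting with Eif1 to Eif6 gave 53 initiation genes, those starting with Eef1 or Eef2 gave 15 elongation genes, and the synthetase symbols ending in ars or ars2 gave 33 synthetase genes. The symbol pattern also takes in genes named after a factor that are not the factor itself, such as the kinases of eIF2, and these are named as such. The samples were 2 polyA RNA libraries made from whole uterus on gestational day 4. The mice were wild type, and their age and strain were not given in the sources used here. In 1 library, RNA carrying N4-acetylcytidine (ac4C) had been pulled down with an antibody (acRIP-seq), and the other was the input control, so every value below rests on 1 library per group with no replicate check and no test between genes. The data were the authors' list of 21192 ac4C peaks, in which each peak has a fold enrichment of signal over background at its summit, as given by the peak caller. A gene is said to hold a peak when the summit lies in its span, introns included. Of 15 genes that mark uterine tissue, smooth muscle, epithelium, endothelium and leukocytes, 12 held a peak, beside 31.7% of all protein-coding genes. Those without one were Epcam and both leukocyte markers, Ptprc and Adgre1. Of 2 embryo markers 0 held a peak, which says little, as most genes held none.

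Translation starts when eIF4F, made of the cap binder eIF4E, the scaffold eIF4G and the helicase eIF4A, recruits an mRNA to a small ribosomal subunit that carries eIF3 and the initiator tRNA bound to eIF2. During elongation, eEF1A brings each charged tRNA to the ribosome and eEF2 moves the ribosome along the mRNA. The synthetases charge tRNAs with their amino acids, with separate genes for most of the cytosolic and mitochondrial enzymes. N4-acetylcytidine is made by Nat10, is well known in tRNA and ribosomal RNA, and has been described in mRNA, where it has been linked to translation.

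The 4 genes with the highest fold enrichment were Eif3b, Eif3f, Eif4g3 and Eif4ebp2, and in each of them the highest peak covered a transcript start annotated by RefSeq. The first 30 bases from that start are shown, from the RefSeq sequences of GRCm38, as the opening of the transcript under these peaks. Letters are those of the transcript strand, 5′ to 3′, and capitals mark cytosine, the base that ac4C modifies. The stretches are chr5:140419305-140419334 (plus strand) for Eif3b, chr7:108934415-108934444 (plus) for Eif3f, chr4:137993455-137993484 (plus) for Eif4g3 and chr10:61452640-61452669 (minus) for Eif4ebp2.
Eif3b: gaCttCtgggagtCggaagCagggCggCCg
Eif3f: CtCtCtttCtCggCaagatggCttCtCCgg
Eif4g3: CgtCCtgCCggaCtgCtggaggCggCCgCa
Eif4ebp2: CgaCCgggCgagagCaggCgagttgagagC
These stretches held 7, 10, 11 and 7 cytosines. Over the first 50 bases cytosine made up 24%, 36%, 32% and 24%, beside a median of 28% at all protein-coding starts. The stretches do not hold the summits of these peaks, which lay farther into each gene. The printed starts of Eif3b and Eif3f are the 5′ ends of the gene spans, but those of Eif4g3 and Eif4ebp2 lie inside the spans. The span of Eif4g3 begins at 137991779, and its summit lay 1851 bp from there. Eif3f opens with a C followed by pyrimidines only over its first 5 bases. Such a start, the form known from terminal oligopyrimidine mRNAs of the translation machinery, was found at 2 of the 91 annotated member starts (2.2%), Eif3f and Wars2, and at 2.23% of all protein-coding starts. That share is near the background, and the letters of an annotated start depend on how exactly it was placed.

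Peaks were found in 46 of the 101 genes, or 45.5%, where 31.7% of all protein-coding genes on these chromosomes held one. The share was 49.1% for initiation genes (26 of 53), 53.3% for elongation genes (8 of 15) and 36.4% for synthetase genes (12 of 33), the last being near the background. With peaks of a −log10 q of at least 10 alone, 26 members (25.7%) kept one, against 18.3% of all genes. These were 16 initiation genes (30.2%), 7 elongation genes (46.7%) and 3 synthetase genes (9.09%), so that the synthetases were then below the background share. Median gene span was 17.8 kb for members and 17.5 kb for all genes, but 17.8 kb for initiation, 13.3 kb for elongation and 27.8 kb for synthetase genes. Over all genes the share with a peak was 16.8% up to 5 kb, 30.7% to 20 kb, 34.1% to 50 kb and 45.2% above. In these span ranges 0 of 2, 7 of 12, 3 of 12 and 2 of 7 synthetase genes held a peak. For initiation genes the counts were 2 of 8, 12 of 22, 9 of 15 and 3 of 8. For elongation genes they were 2 of 2, 4 of 9, 1 of 3 and 1 of 1. The share of the classes at like span was not tested. The background at the summit, which the peak caller sets, was higher in members, with a median of 5.25 fragments over their 118 peaks and 2.63 over the whole list. Whether abundant RNA brought members above the calling limit more often was not tested. In whole tissue, fewer cells that use a gene and less of its RNA per cell cannot be told apart, and the list gives no value for a gene without a peak, so ac4C in such a gene was not detected at this depth.

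The fold enrichment of a gene's highest peak had a median of 5.87 in the 26 initiation genes, 6.77 in the 8 elongation genes and 4.80 in the 12 synthetase genes, beside 6.62 in all protein-coding genes with a peak. The initiation genes were the most spread, from 2.13 in Eif4e to 20.4 in Eif3b. The elongation genes ran from 4.37 to 10.5 and the synthetases from 2.68 to 11.3. At least 10-fold enrichment was reached by 6 initiation genes (11.3%), 1 elongation gene (6.67%) and 1 synthetase gene (3.03%). Over all genes 6.07% reached it. Together the members stood at 7.92%, near the background, with the initiation share above it and the synthetase share below. In classes of this size these differences were not tested. Of the genes with a peak, 10 of 26 initiation, 5 of 8 elongation and 2 of 12 synthetase genes stood higher than 6.62-fold.

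**Figure D1:**
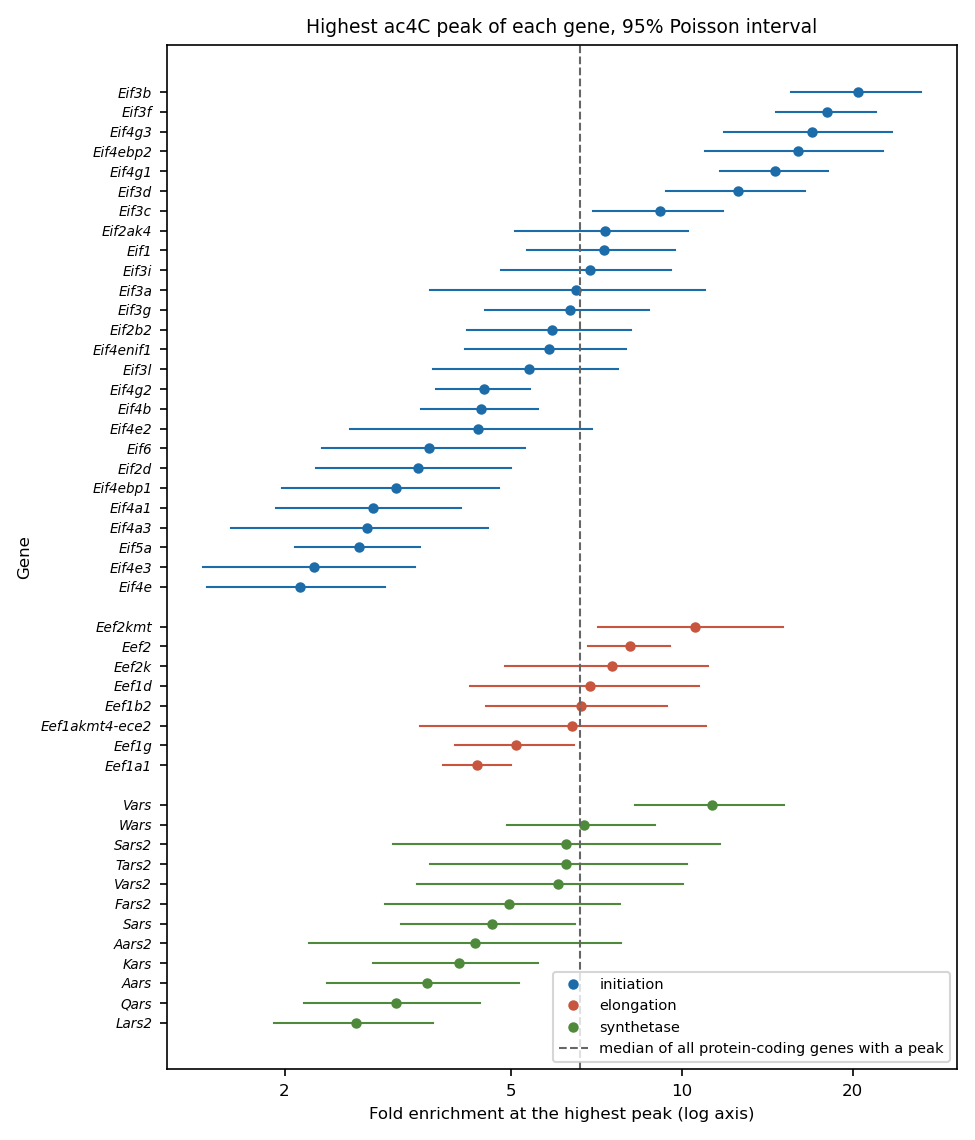
Fold enrichment at the highest ac4C peak of each of the 46 genes with a peak (log axis), with 95% Poisson intervals of the fragment number, by class; the dashed line is the median of all protein-coding genes with a peak, 6.62. The intervals of the 7 leading initiation genes lie wholly to the right of the line, and those of the 11 lowest lie to its left except that of Eif4e2, which crosses it.

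The eIF3 complex, which binds the small ribosomal subunit and bridges it to eIF4G, held a peak in 8 of its 14 genes. That was 57.1%, beside 31.7% of all protein-coding genes. Eif3b (NCBI gene 27979) had a single peak on chromosome 5 from 140419300 to 140419795. It rested on 57 fragments over a background of 1.84 and stood at 20.4-fold (95% interval 15.6 to 26.4), with its summit 330 bp from the 5′ end of the gene. Eif3f (NCBI gene 66085) had 96 fragments over 4.38 in its first peak, on chromosome 7 from 108934383 to 108934881, and stood at 18.0-fold (14.6 to 22.0), with the summit 177 bp from the 5′ end. The intervals of both genes overlapped. A second peak of Eif3f, near the middle of the gene, stood at 6.54-fold (4.56 to 9.10), clear of the first.

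In Eif3d, the subunit that can itself bind a cap, 3 peaks lay close together between 56.5% and 69.5% of the span from the 5′ end. They stood at 4.16-fold (3.16 to 5.38), 12.5-fold (9.38 to 16.5) and 9.33-fold (6.76 to 12.6). The first interval did not overlap the others, and its background was 12.7 fragments against 3.06 and 3.5. Eif3c also held 3 peaks, the highest at 9.15-fold (6.97 to 11.8), and Eif3a, the largest subunit, held one of 6.51-fold (3.60 to 11.0) 686 bp from its 5′ end and one of 2.40-fold (1.82 to 3.11) farther on. Eif3g, Eif3i and Eif3l held 2 peaks each, with highest values of 6.36, 6.88 and 5.39. The 6 genes without a peak were Eif3e, Eif3h, Eif3j1, Eif3j2, Eif3k and Eif3m. Eif3a, Eif3b and Eif3c were all among the genes with a peak, but eIF3 was taken as a whole and no subset of its subunits was chosen beforehand.

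The eIF4G scaffolds held the most peaks of the initiation genes, and differed among themselves. Eif4g3 (NCBI gene 230861) held 13 peaks over a span of 215 kb and Eif4g1 (NCBI gene 208643) 10 over 20.2 kb, while Eif4g2, whose protein lacks the part that binds eIF4E, held 1. In Eif4g3 the peak on chromosome 4 from 137993451 to 137994385 stood at 16.9-fold (11.9 to 23.5) on 34 fragments over 1.07. Of its 13 peaks, 4 reached at least 10-fold, and the lowest stood at 3.88-fold. In Eif4g1 the highest was the third peak from the 5′ end, on chromosome 16 from 20675186 to 20675800, at 14.6-fold (11.7 to 18.1) on 84 fragments over 4.81. The 7 peaks farther along the gene lay between 2.79-fold and 6.49-fold, and their intervals all lay below that of the third. Peaks covered 22.4% of the span of Eif4g1, 2.39% of that of Eif4g3 and 6.31% of that of Eif4g2. The single peak of Eif4g2 was 949 bp wide and stood at 4.49-fold (3.69 to 5.41) on 108 fragments over 23.3. Its interval lay below those of the highest peaks of Eif4g1 and Eif4g3, which are the highest of 10 and 13 and had lower backgrounds. The median over a gene's peaks was 5.33-fold in Eif4g1 and 8.53-fold in Eif4g3.

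**Figure D2:**
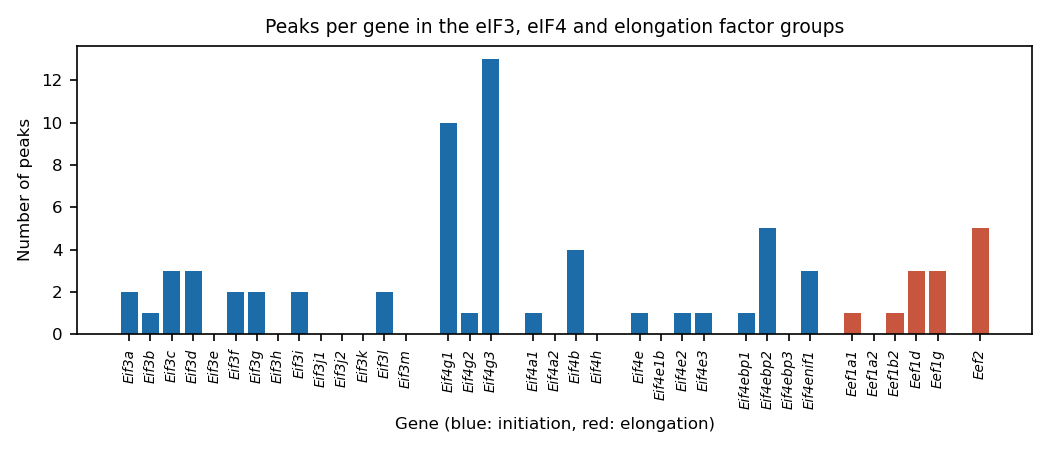
Number of ac4C peaks in each gene of the eIF3, eIF4 and elongation factor groups, genes without a peak included; bars are counts from 1 peak list. Eif4g3 with 13 and Eif4g1 with 10 stand above every other gene shown, the next being Eif4ebp2 and Eef2 with 5.

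The genes of the cap binders and of the helicase with its cofactors stood at 4.44-fold or less where they held a peak. Eif4e, the cap binder, stood at 2.13-fold (1.46 to 3.01) on 30 fragments over 13.6, the lowest value of all 46 genes, and Eif4e3 stood at 2.26-fold (1.44 to 3.39). Eif4e2 stood at 4.37-fold (2.61 to 6.94). The helicase gene Eif4a1 stood at 2.86-fold (1.93 to 4.09), and Eif4b, a cofactor of the helicase, held 4 peaks of 2.65-fold to 4.44-fold on backgrounds of 15.2 to 21.4 fragments. Eif4a3, part of the exon junction complex, stood at 2.79-fold (1.61 to 4.55). The intervals of Eif4e, Eif4e3, Eif4a1 and Eif4b lay below those of the highest peaks of Eif4g1 and Eif4g3. Those peaks were the highest of 10 and 13, on lower backgrounds of 4.81 and 1.07 fragments. Eif4a2, Eif4h, Eif4e1b and Eif4a3l1 held no peak.

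Among the inhibitors that bind eIF4E, Eif4ebp2 stood apart from Eif4ebp1. Eif4ebp2 (NCBI gene 13688) held 5 peaks. Its highest, on chromosome 10 from 61452343 to 61452687, stood at 16.0-fold (11.0 to 22.6) on 30 fragments over 0.937 and had its summit 274 bp from the 5′ end. A peak at 72.8% of the span stood at 14.1-fold (10.9 to 18.0) on 64 fragments, with an interval that overlapped that of the first. The 3 peaks beyond it stood at 6.62, 5.59 and 4.09-fold, and all of their intervals lay below both. Eif4ebp1 held 1 peak at 3.14-fold (1.98 to 4.77), clear of both high peaks of Eif4ebp2, and Eif4ebp3 held none. Eif4enif1, which carries eIF4E into the nucleus, held 3 peaks of 3.93-fold to 5.83-fold, with summits between 94.8% and 98.3% of its span from the 5′ end.

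eIF2, eIF2B and the eIF2 kinases set the supply of initiator tRNA and act in the integrated stress response. The genes grouped as eIF2 and tRNA delivery (Eif2s1, Eif2s2, Eif2a and Eif2d) held a peak in 1 of 4 cases. That gene was Eif2d, which does not code for a subunit of eIF2. The eIF2B genes held a peak in 1 of 5 cases and the kinase genes in 1 of 4. In groups this small these counts cannot be told from the 31.7% of all genes. Of the 5 eIF2B genes only Eif2b2 held one, at 5.92-fold (4.19 to 8.13), and Eif2b1, Eif2b3, Eif2b4 and Eif2b5 held none. Of the 4 kinase genes only Eif2ak4, the sensor of uncharged tRNA, held peaks, at 7.33-fold (5.08 to 10.3) and 6.62-fold (4.30 to 9.79). Eif2ak1, Eif2ak2 and Eif2ak3 held none, nor did Eif2s1, Eif2s2 and Eif2a. Eif2d held 2 peaks of 3.36-fold and 3.44-fold, but both summits also lay in the protein-coding gene Rassf5, and the list gives no strand to part them. Eif1, which acts in choosing the start codon, held 1 peak at 7.30-fold (5.35 to 9.74), while Eif1a, Eif1b and Eif1ad held none. Eif5a, whose protein carries hypusine and acts in elongation, held 2 peaks of 2.67-fold and 2.71-fold on backgrounds of 24.5 and 21.9 fragments, the first in a stretch shared with Gps2. Eif6 stood at 3.59-fold (2.33 to 5.31), and Eif5, Eif5b and Eif5a2 held no peak.

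The elongation factors themselves held peaks in 5 of 6 genes (83.3%), beside 31.7% of all protein-coding genes. The deepest backgrounds of all members were those of Eef2 and Eef1a1. Eef2 (NCBI gene 13629) held 5 peaks that together covered 66.7% of its span of 5.88 kb. From the 5′ end they stood at 8.11-fold (6.84 to 9.55), 6.62-fold (5.58 to 7.81), 4.11-fold (3.55 to 4.73), 2.96-fold (2.52 to 3.45) and 4.13-fold (3.56 to 4.77), on 139 to 190 fragments. The intervals of the first 2 peaks lay above those of the other 3, and the background there was lower, at 16.6 and 20.1 fragments against 43.8 to 53.4. Eef1a1 (NCBI gene 13627) held 1 peak of 2138 bp that covered 65.3% of its span, at 4.37-fold (3.80 to 5.0) on 208 fragments over 46.8. Its muscle and nerve paralogue Eef1a2 held none.

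The exchange factor genes of eEF1A held 1 to 3 peaks each. Eef1d stood at 6.91-fold (4.24 to 10.7), Eef1b2 at 6.64-fold (4.52 to 9.44) and Eef1g at 5.11-fold (3.99 to 6.45), and these intervals overlapped. Of the genes that modify elongation factors, Eef2kmt, a methyltransferase of eEF2, held a peak of 1546 bp at 10.5-fold (7.13 to 15.1), and Eef2k, the kinase that inhibits eEF2, held 3 peaks of 6.20-fold to 7.53-fold. At 2 of the peaks of Eef2k the table also lists the long non-coding RNA Gm15774. The read-through gene Eef1akmt4-ece2 held 3 peaks of 5 to 11 fragments, of which all summits also lay in Camk2n2 or Ece2, so none can be given to it alone. Eef1akmt1, Eef1akmt2, Eef1akmt3, Eef1akmt4, Eef1aknmt and Eef1e1, a protein of the synthetase complex, held none.

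The RefSeq table lists 7 pseudogenes named after 4 of the members, and 2 of them held peaks. Eef1a1-ps1 on chromosome 19 stood at 20.9-fold (15.1 to 28.3) on 40 fragments over 0.963, above the interval of Eef1a1 itself, and Eef2-ps2 on chromosome 4 stood at 9.09-fold (6.15 to 13.0). How reads were shared between such copies and their parents was not tested, so the values of Eef1a1 and Eef2 are uncertain to that extent.

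Among the synthetases 1 gene stood out. Vars (NCBI gene 22321), the cytosolic valyl-tRNA synthetase, held 9 of the 30 synthetase peaks, which covered 32.8% of its span of 15.4 kb. The highest, on chromosome 17 from 35014844 to 35015754, stood at 11.3-fold (8.26 to 15.2) on 43 fragments over 2.89, and the lowest at 2.84-fold (1.85 to 4.21). Wars, for tryptophan, held 5 peaks with a highest value of 6.73-fold (4.93 to 8.98), whose interval overlapped that of Vars. The other cytosolic genes with a peak were Sars, Kars, Aars and Qars, with 1 peak each of 4.63, 4.05, 3.57 and 3.14-fold. All of their intervals lay below that of the highest peak of Vars. That peak is the highest of 9, a choice its interval does not cover, and the median over the Vars peaks was 6.07-fold. The highest Vars peak also had a background of 2.89 fragments, against 6.13 to 9.19 in those genes. Cars, Dars, Gars, Hars, Iars, Lars, Nars, Rars, Tars and Yars held none.

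Mitochondrial synthetases held a peak in 6 of 17 genes (35.3%), and cytosolic ones in 6 of 16 (37.5%). Both shares were near the 31.7% of all protein-coding genes. The mitochondrial peaks all fell short of a −log10 q of 10, the highest being 7.55 in Tars2. The 3 synthetase genes that passed this stricter limit were all cytosolic, namely Vars (31.4), Wars (20.9) and Sars (10.4). The difference between the cytosolic and mitochondrial genes was not tested. Sars2 stood at 6.26-fold (3.10 to 11.7) on 8 fragments and Tars2 at 6.25-fold (3.60 to 10.2) on 14. Vars2 held 3 peaks, the highest at 6.05-fold on 13 fragments. The intervals of Sars2 and Sars overlapped, as did those of Vars2 and Vars. Fars2 stood at 4.96-fold, Aars2 at 4.32-fold and Lars2 at 2.68-fold. Both a cytosolic and a mitochondrial enzyme were members for 13 amino acids. Both genes held a peak for 3 of them (alanine, serine and valine), the cytosolic gene alone for 1 (tryptophan), the mitochondrial gene alone for 2 (leucine and threonine), and neither for 7. Those without a peak included Cars2, Ears2, Hars2, Iars2, Mars2, Nars2, Pars2, Rars2, Wars2 and Yars2.

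Over all genes, fold enrichment was lower where the background was deeper, and the classes sat at different backgrounds. The list holds only peaks that passed its q limit. Its lowest value in these genes was 3.17-fold below 2 fragments, 2.16-fold from 2 to 10 and 1.61-fold at 10 or more. How far that limit sets the trend was not tested. The median background was 5.43 fragments over 68 initiation peaks, 12.7 over 20 elongation peaks and 3.5 over 30 synthetase peaks. Below 2 fragments, the median fold enrichment was 10.4 for 8 initiation peaks, 6.40 for 7 elongation peaks and 5.12 for 11 synthetase peaks, beside 6.40 for 7427 peaks of all genes. From 2 to 10 fragments it was 5.83 for 41 initiation peaks, 7.08 for 2 elongation peaks and 5.20 for 16 synthetase peaks, beside 5.28 for all genes, so that the elongation and synthetase medians were not lower there than below 2 fragments. At 10 fragments or more it was 3.67 for 19 initiation peaks, 4.37 for 11 elongation peaks and 2.96 for 3 synthetase peaks, beside 3.61 for all genes. At backgrounds of at least 10 fragments no member peak exceeded 8.11-fold, the value of Eef2. Over all genes the highest value there was 14.1-fold. The low values of Eef1a1, Eif4b, Eif4e, Eif4g2, Eif5a and Lars2 were measured at such backgrounds. So was the highest peak of Eef1g, at 5.11-fold.

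**Figure D3:**
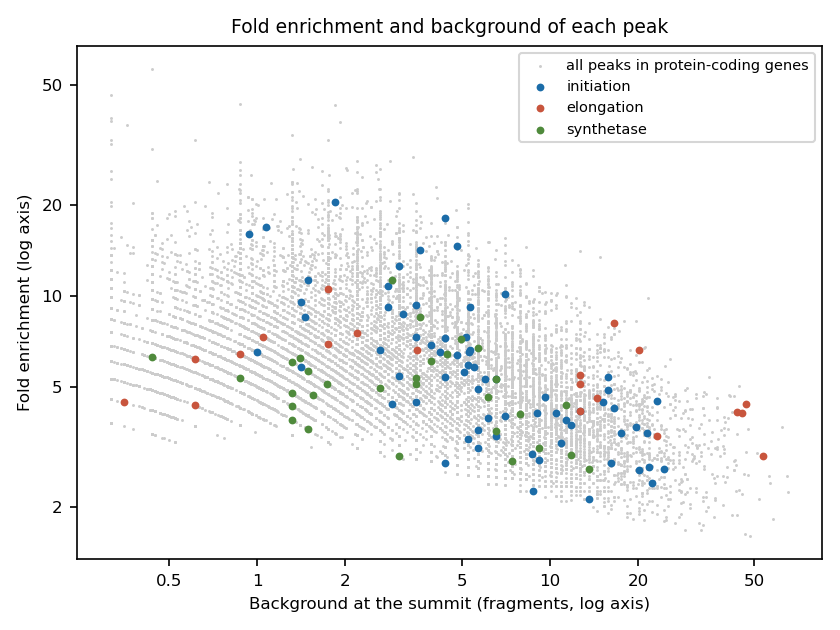
Fold enrichment (log axis) against background in fragments at the summit (log axis) of each peak; grey points are all peaks in protein-coding genes of chromosomes 1 to 19, coloured points the 118 member peaks by class. The member points of the deepest background, at 43.8 to 53.4 fragments, are 3 peaks of Eef2 and the peak of Eef1a1, at 2.96 to 4.37-fold.

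Peaks were placed along the gene for the 37 genes with a peak whose strand was listed, with 92 peaks. The 9 genes with a peak but no listed strand were left out. Among them were Vars and Wars, with 9 and 5 of the 30 synthetase peaks, and Eef1d and Eef1g, with 3 peaks each. Summits came as near to an end as 0.96% of the span in Vars and 1.82% in Eef1g, but which end was not known. Of the initiation peaks, 8 of 62 (12.9%) lay in the first 10% of the span and 10 (16.1%) in the last 10%. Of the 14 elongation peaks 0 lay in the first 10% and 3 in the last, and of the 16 synthetase peaks 0 and 6. Over all protein-coding genes 11.1% of 15871 peaks lay in the first 10% and 25.2% in the last. The 8 initiation peaks in the first 10% had a median fold enrichment of 12.3, the 44 in the middle one of 5.38 and the 10 in the last 10% one of 4.01. Over all genes these medians were 6.08, 5.58 and 5.19. The 8 initiation peaks include those over the starts of Eif3b, Eif3f, Eif4g3 and Eif4ebp2, at 16.0 to 20.4-fold. The rest of the 8 stood at 4.93-fold in Eif3c, 6.51-fold in Eif3a, and 5.81 and 8.67-fold in Eif4g1.

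**Figure D4:**
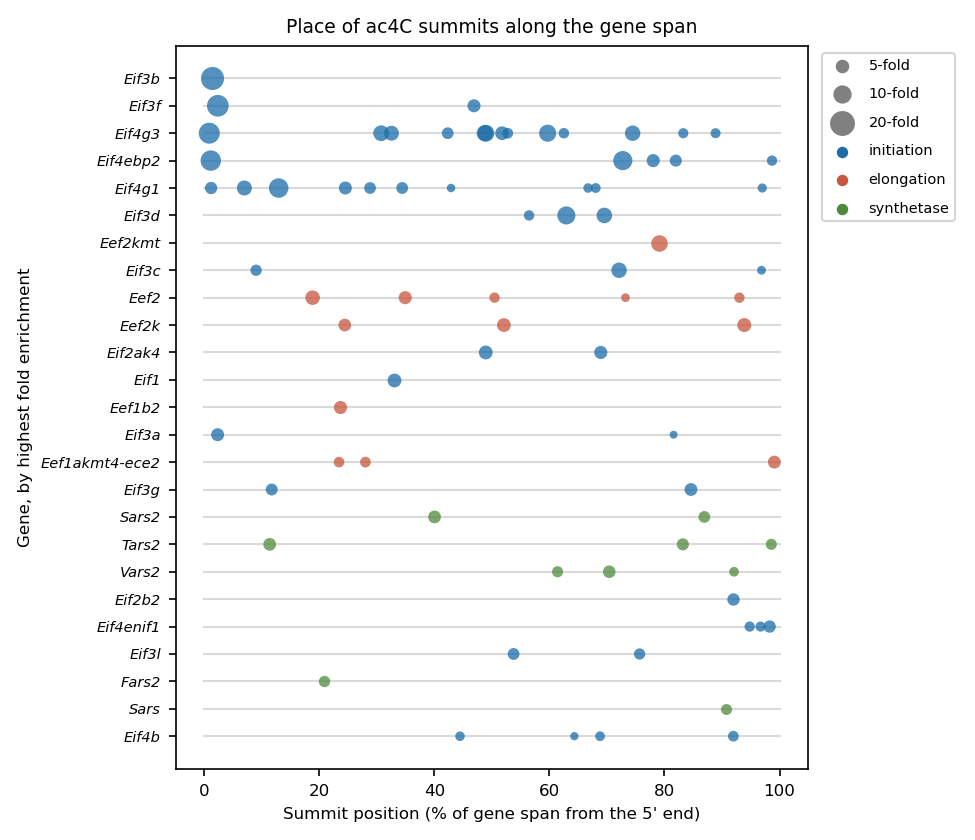
Summit position in percent of the gene span from the 5′ end, for the 25 genes with a listed strand and the highest fold enrichment, ordered by it; the area of a point grows with fold enrichment. The largest points of Eif3b, Eif3f, Eif4g3 and Eif4ebp2 lie in the first 2.35% of the span, and no elongation or synthetase point lies in the first 10%.

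A peak covered an annotated start in 4 of the 37 genes, and in all 4 it was the gene's highest peak. These 4 peaks stood at 16.0 to 20.4-fold, while the other 88 peaks of these genes reached 14.6-fold at most and had a median of 4.95. Over all 5223 protein-coding genes with a listed start and a peak, the highest peak covered a start in 3.03%, and in 6.98% of the 988 genes of at least 10-fold enrichment. The 259 peaks over a start had a median of 7.82-fold, against 5.54-fold for the other 15612, so higher values at starts were seen over all genes too. Eif4g3 has 2 annotated starts under its peak, 1 base apart. Among all genes the first 50 bases had a median of 32% cytosine at starts under a peak and 28% at other starts. The spaced cytosine pattern CNNCNNCNNCNN, a form of the CXX repeats described for ac4C, was searched in these 50 bases with overlaps allowed. It was present on the transcript strand at 32 of the 91 member starts (35.2%) and at 25.2% of all starts, and on the opposite strand at 42.9% and 35.1%. Of the 4 genes above, Eif3f and Eif4g3 held it and Eif3b and Eif4ebp2 did not.

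Other genes of the pathway, 42 in lists of 2 to 12, held a peak in 23 cases (54.8%), against 31.7% of all protein-coding genes. Among the genes that control translation it was 10 of 12, with a median of 9.70-fold at the highest peak, where 31.7% of all protein-coding genes held a peak and their median was 6.62-fold. Rps6kb2, an S6 kinase, stood at 19.5-fold (15.1 to 24.9), and Mknk2, which phosphorylates eIF4E, at 18.4-fold (14.4 to 23.1). Mtor itself held 8 peaks and reached 13.0-fold (8.83 to 18.4). Termination and recycling genes held a peak in 4 of 7 cases, the highest being Gspt1 (eRF3) at 11.9-fold (9.12 to 15.4). Those that bind poly(A) or its binding protein did so in 3 of 5 cases, the highest being Pabpc4 at 9.62-fold (6.55 to 13.7). Both hypusine enzyme genes, Dhps and Dohh, held 1 peak, the higher at 7.46-fold in Dohh. Of 9 mitochondrial translation factor genes 2 held a peak, Tufm and Gfm1, the higher being Gfm1 at 7.44-fold. Of the 5 synthetases that the symbol pattern misses, Mars1 stood at 7.77-fold (5.45 to 10.8) and Farsa at 4.66-fold (2.94 to 7.08), while Eprs, Farsb and Tarsl2 held no peak. The scaffold genes of the synthetase complex, Aimp1 and Aimp2, held none.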

How the data were processed

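The input was 1 peak list of 10 columns for the 1 immunoprecipitation library, deposited for the whole series. The submitters' processing notes name HISAT2 2.2.1, MACS3 3.0.0a7 and the build mm10, with no parameters, per the labels. The fold enrichment (a ratio), the −log10 p and −log10 q and the score of each peak were deposited by the authors and kept as given; the list ended at a q of 0.05. The summit offset, the remaining deposited column, placed each summit.

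Fragment numbers were recovered as the whole number n for which (n + 1) / (background + 1) gave the fold enrichment and the Poisson tail above n gave the p-value. All 21192 peaks matched within a relative miss of 8.58e-06, and the step was tested on simulated data. Intervals are exact 95% Poisson intervals of n with the background held fixed, and cover counting error only, since PCR copies are not told from separate molecules. They also do not cover the choice of the highest among several peaks of a gene. The median summit of the list held 22 fragments.

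Gene spans came from the RefSeq table of GRCm38.p6, the assembly of mm10. Strands, starts and sequences came from the RefSeq promoter table of that build, which matched 75 of the 101 genes. Exons were not used here, and 1 gene is counted but not reported by name here. Values in full are given for the 5 highest genes and the 3 with most peaks of each class and for the members of each complex with a peak; of each other pathway list the highest is given, and a few more were named after their values were seen. The members, lists and rules were chosen with earlier results of these data known. With 1 library per group no test was run. Python 3.11.15, pandas 2.3.3 and scipy 1.17.1 were used.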

Additional observations from a re-analysis of the deposited data

How the results depend on the processing

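With a −log10 q of at least 10, members with a peak fell in number from 46 to 26, initiation genes from 26 to 16 and synthetase genes from 12 to 3, and the synthetase median rose from 4.80 to 6.73, all by removal of weaker peaks. Without genes that are only named after a factor, elongation genes with a peak numbered 5, by construction. The other 32 values for counts and medians stayed within 1.5 times, or within the binomial interval of the median, under the q limit, summits in 1 gene, any overlap, factors and synthetases alone, the median over a gene's peaks and the 4 added synthetases (Eprs, Farsa, Farsb and Mars1; Tarsl2 was not part of that alternative). Some of the 32 values could not move. All synthetase genes count as synthetases themselves, so that alternative left the class as it was. The q limit could not remove a gene of at least 10-fold, as the lowest −log10 q of their highest peaks was 21.0. The median over a gene's peaks lowered 6 of 15 named genes below their interval. Chosen after the data were seen, limits of 500 bp in width or of at least 1 fragment of background left 3 of the 4 highest genes with a peak over a start. No paired analysis was possible because each group had 1 library. Weak enrichment in transcripts of low abundance was not detectable at this depth.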
